A study of Mus musculus with 5 samples.

Results

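The genes described here are 8 genes of lipoprotein particles and lipid efflux, Apoe, Clu, Lpl, Abca1, Abcg1, Lrp1, Nr1h2 and Nr1h3. They were taken by symbol from the authors' deposited table of 18783 genes, and all 8 were found there. RNA was sequenced from primary astrocyte cultures of newborn C57BL/6 mice in 3 groups. One library came from cultures given 1 µM amyloid-β peptide (Aβ) together with 50 µM DFMO (Aβ+DFMO), 2 from cultures given 1 µM Aβ alone (Aβ), and 2 from untreated cultures (Control, which received neither agent). Agents were added on day 7 in vitro and left for 5 days, and cells were taken on day 12, per the labels' protocols. DFMO, difluoromethylornithine, irreversibly inhibits ornithine decarboxylase, the enzyme that makes putrescine. Whether the libraries of 1 group are separate cultures is not stated, so p-values may measure technical spread alone.

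Astrocytes are the main source of lipoprotein particles in the brain. ABCA1 loads cholesterol and phospholipid onto secreted apolipoprotein E (Apoe) and clusterin (Clu, also called apolipoprotein J), and ABCG1 adds further sterol to the growing particle. Receptors such as LRP1 take particles up, and lipoprotein lipase (Lpl) releases fatty acids from them. The liver X receptors LXRβ (Nr1h2) and LXRα (Nr1h3) are oxysterol sensors that pair with retinoid X receptors and activate Apoe, Abca1, Abcg1 and Lpl, and apolipoprotein E and LRP1 both bind Aβ.

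Promoter windows of Abca1 and Apoe are shown first, because both are targets of the liver X receptors and their values are set side by side below. Each window is 300 bases of RefSeq's GRCm38.p6 sequence, from 250 bases before a transcription start to 50 after it, on the minus strand: chr4:53159846-53160145 for Abca1 and chr7:19699139-19699438 for Apoe. Capitals mark an E-box (CACGTG), a relaxed LXR repeat read on the opposite strand and a TATA box (TATAAA) in Abca1.
Abca1: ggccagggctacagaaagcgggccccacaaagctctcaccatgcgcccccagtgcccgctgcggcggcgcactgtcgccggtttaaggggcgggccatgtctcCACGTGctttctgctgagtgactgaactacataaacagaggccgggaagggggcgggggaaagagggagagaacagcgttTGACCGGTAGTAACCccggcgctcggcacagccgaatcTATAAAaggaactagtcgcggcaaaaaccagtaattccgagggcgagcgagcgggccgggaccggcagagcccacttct
Apoe: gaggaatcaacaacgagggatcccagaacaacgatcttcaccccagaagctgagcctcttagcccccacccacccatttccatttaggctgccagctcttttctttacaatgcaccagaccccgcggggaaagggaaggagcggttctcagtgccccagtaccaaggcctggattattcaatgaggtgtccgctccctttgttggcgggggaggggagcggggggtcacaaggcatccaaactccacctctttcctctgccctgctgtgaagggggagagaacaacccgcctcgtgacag
The perfect LXR repeat, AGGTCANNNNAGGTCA, was searched on both strands and lay in 0.0152% of 32851 windows of this length, in none of those of these genes. A relaxed form, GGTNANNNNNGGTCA, lay in 0.207% of the windows, the one of Abca1 among them, from 67 to 53 bases before the start. The E-box lay from 147 to 142 bases before the start in Abca1 (7.15% of all windows hold one on either strand) and the TATA box from 29 to 24 bases before it (13.6%). The printed Apoe window, at the annotated start of the gene, held neither LXR form, no E-box and no TATAAA. Of 2 other Apoe windows in the table, which begin further into the gene, 1 held TATAAA from 96 to 91 bases before its start, overlapping a match on the opposite strand. The relaxed form drops or leaves open the bases at which the Abca1 match departs from the perfect repeat. How that form was chosen is not stated, so the Abca1 match cannot be counted as an independent hit. A match of letters is a description and does not show that a factor binds. The table held windows for 5 of the 8 genes.

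The libraries held 4825677 reads in Aβ+DFMO, 46886111 and 105544237 in Aβ, and 49676004 and 49020833 in Control, so the Aβ+DFMO library was 9.72 to 21.9 times shallower than the others. For each gene the authors give normalized means per group, a signal with no named unit, and values per library were not used. The spread of a log2 ratio is therefore given as the standard error implied by the authors' p-value, called the implied SE. The astrocyte markers were present at unlike levels, from Gfap at 57209 and Slc1a3 at 37554 to Gjb6 at 9.86 in Control. The cultures also held other cells. The summed means of 16 microglia and macrophage markers were 45603 in Aβ+DFMO, 59740 in Aβ and 58951 in Control. That sum is led by Lyz2, at 33225 in Aβ against 25844 in Control, and in Aβ over Control the median log2 ratio of the 16 was −0.35, with Csf1r, Tmem119, P2ry12 and Laptm5 called lower and Lyz2 higher. Those of 12 oligodendrocyte lineage markers were 26405 in Aβ+DFMO, 48435 in Aβ and 48835 in Control. The log2 ratios of these 12 in Aβ+DFMO over Aβ ran from −1.82 to −0.46. Their median of −1.08 was the lowest of the 7 marker lists, and it was −0.79 with the GC trend described below taken out. The astrocyte list had a median of −0.42 and the microglia and macrophage list one of −0.30. The summed means of 10 fibroblast, meningeal and mural markers were 148830 in Aβ+DFMO, 135293 in Aβ and 132638 in Control, and those of 8 neuron markers were 23356 in Aβ+DFMO, 20185 in Aβ and 20643 in Control. Those of 6 markers of ependyma and choroid plexus were 2732 in Aβ+DFMO, 4980 in Aβ and 5092 in Control, and those of 6 endothelial markers were 879 in Aβ+DFMO, 810.1 in Aβ and 793 in Control. These sums rest largely on few genes. In Aβ+DFMO against Aβ, Acta2 was at 81013 against 66644, Stmn2 at 9830 against 6639, Foxj1 at 2303 against 4396 and Flt1 at 663 against 459. The median log2 ratios of Aβ+DFMO over Aβ were −0.06 for the fibroblast, meningeal and mural list and −0.19 for the neuron list. They were −0.38 for the ependymal list and −0.30 for the endothelial list, below 0 also where the sum was higher. No measured marker of any of the 7 lists was at 0 in Control. Of the lists, 2 neuron, 2 endothelial and 1 ependymal or choroid plexus marker were not among the genes measured. Some measured markers were scarce in Control, such as Snap25 (50.7), Cdh5 (17.9) and Tek (5.10), against 10827 for Map2 and 480 for Flt1. Whether neurons and endothelial cells were present was not tested. In bulk RNA, fewer cells of a type and less RNA per cell cannot be told apart.

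DFMO added to Aβ was compared with Aβ alone first. Apoe, Lpl and Nr1h2 were lower in Aβ+DFMO at an adjusted p under 0.05, and the other 5 genes did not pass. All 8 log2 ratios were below 0, with a median of −0.44 against 0.01 over all genes. Of all genes in the authors' deposited table, 9.18% were called in this comparison, 4% higher and 5.18% lower. That is 751 genes higher and 973 lower, and the balance turned to 989 higher and 813 lower with a trend with transcript length taken out. Each value rests on 1 library in Aβ+DFMO, and the authors' model takes that library to vary like those of the other groups. The trend with base composition described below lies across these values.

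**Figure D1:**
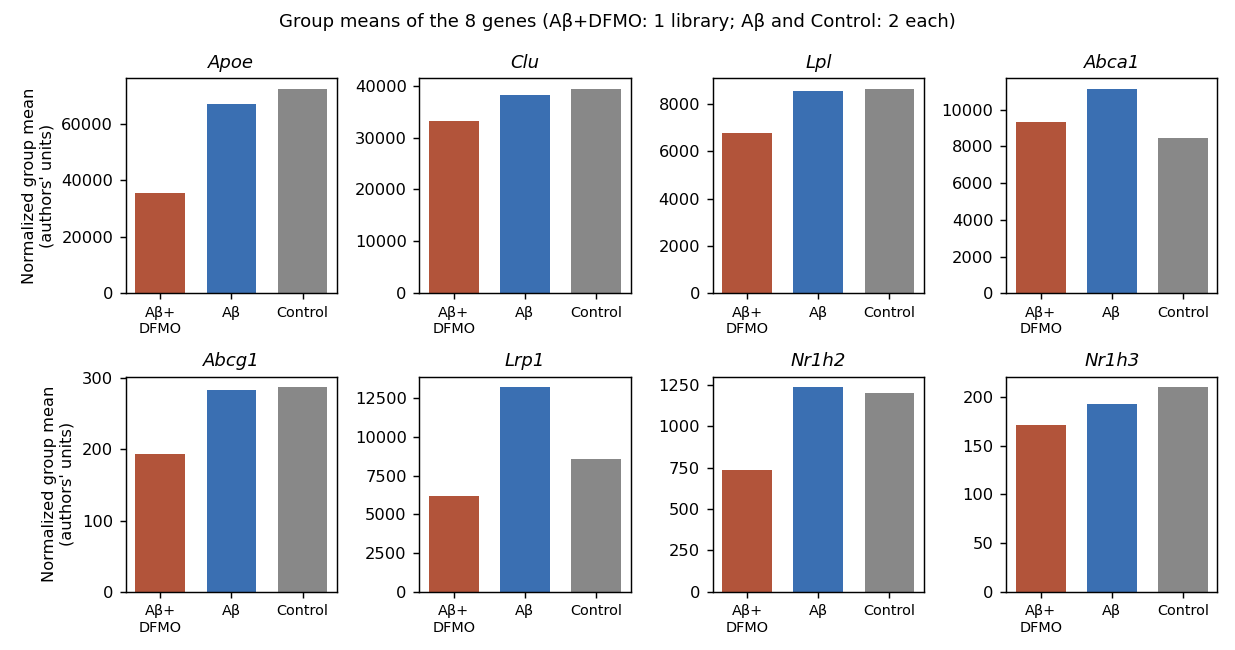
Normalized group means (bars, linear axes from 0) of the 8 genes in Aβ+DFMO (1 library), Aβ (2 libraries) and Control (2 libraries), with no error bars because values per library were not used. Aβ+DFMO is below Aβ for each gene, from 35645 against 67078 for Apoe to 171 against 193 for Nr1h3, and Lrp1, Abca1 and Nr1h2 stand highest in Aβ.

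Apoe, the main lipid carrier that astrocytes secrete, had a mean of 35645 in Aβ+DFMO, against 67078 in Aβ and 72364 in Control. In the authors' deposited table it fell in Aβ+DFMO by 0.91 on the log2 scale relative to Aβ (implied SE 0.0900, adjusted p = 7.56e-21), which is 46.9% lower, with a 95% interval of the ratio from 0.470 to 0.601. Its rank among all genes was 64 in Aβ+DFMO, 16 in Aβ and 18 in Control. The Aβ+DFMO mean corresponds to an estimated 4775 counted reads. The summed means of 13 astrocyte markers were also lower, at 170494 in Aβ+DFMO against 220184 in Aβ, and 6 of the 13 passed, all lower (5 with the GC trend described below taken out). Their part in the value of Apoe was not tested. The gene is on the minus strand of chromosome 7, from 19696109 to 19699188 (GRCm38, as for all positions of genes below).

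Clu, a secreted chaperone that also carries lipid, had means of 33096 in Aβ+DFMO, 38221 in Aβ and 39398 in Control. Its log2 ratio of −0.21 in the authors' deposited table (implied SE 0.0876) did not pass (unadjusted p = 0.0177, adjusted p = 0.124). The 95% interval of the ratio ran from 0.769 to 0.975, and it does not reach the ratio of Apoe. Per kilobase of transcript, the normalized mean of Apoe was 1.38 times that of Clu in Aβ+DFMO, 2.26 times in Aβ and 2.36 times in Control. Clu is on the plus strand of chromosome 14, from 65968483 to 65981547.

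Lpl, which hydrolyses the triglycerides of lipoproteins, had means of 6797 in Aβ+DFMO, 8557 in Aβ and 8653 in Control. By the authors' deposited table it fell in Aβ+DFMO by 0.33 on the log2 scale (implied SE 0.110, adjusted p = 0.0330), or 20.6%. The gene is on the plus strand of chromosome 8, from 68880491 to 68907448. Microglia and macrophages also express Lpl, and 4 of their 16 markers were lower and none was higher in this comparison (2 lower with the GC trend described below taken out). The median log2 ratio of the 16 was −0.30, or −0.19 with that trend taken out. The 12 oligodendrocyte lineage markers had a lower median, −1.08, or −0.79 with it taken out. The part of either cell type in the value of Lpl was not tested.

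The efflux pumps did not pass. Abca1 (chromosome 4, 53030787 to 53159895, minus strand) had means of 9323 in Aβ+DFMO, 11145 in Aβ and 8472 in Control. Its log2 ratio of −0.26 in the authors' deposited table had an implied SE of 0.469 (adjusted p = 0.847), and the interval of the ratio, 0.442 to 1.58, holds the ratio of Apoe as well as no change. Abcg1 (chromosome 17, 31057675 to 31117988, plus strand) had means of 194 in Aβ+DFMO, 284 in Aβ and 287 in Control. The log2 ratio of Abcg1 was −0.55 in the authors' deposited table (implied SE 0.373, adjusted p = 0.437), on an estimated 26 reads in Aβ+DFMO.

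Lrp1, the large endocytic receptor for apolipoprotein E and Aβ (chromosome 10, 127538161 to 127621148, minus strand), had means of 6193 in Aβ+DFMO, 13211 in Aβ and 8566 in Control. The log2 ratio of −1.09 was the lowest of the 8 in the authors' deposited table, yet it did not pass (implied SE 0.575, unadjusted p = 0.0571, adjusted p = 0.258). Relative to Control the Aβ+DFMO mean of Lrp1 was lower by less, at a log2 ratio of −0.47 that was not tested.

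Of the liver X receptors, Nr1h2 (chromosome 7, 44549616 to 44553951, minus strand) had means of 738 in Aβ+DFMO, 1237 in Aβ and 1203 in Control. By the authors' deposited table it fell by 0.75 on the log2 scale in Aβ+DFMO (implied SE 0.203, adjusted p = 0.00606), on an estimated 99 reads. Nr1h3 (chromosome 2, 91184061 to 91202834, minus strand) had means of 171 in Aβ+DFMO, 193 in Aβ and 210 in Control, and its log2 ratio of −0.17 (implied SE 0.410, adjusted p = 0.891 in the authors' deposited table) rests on an estimated 23 reads. Per kilobase, the normalized mean of Nr1h2 was 4.21 times that of Nr1h3 in Aβ+DFMO, 6.27 times in Aβ and 5.60 times in Control.

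Values of Aβ+DFMO moved with the base composition of the transcript. Among genes whose Aβ mean reached 200, the median log2 ratio of Aβ+DFMO over Aβ was 0.38 in the 610 genes under 40% GC and −0.62 in the 453 genes of 60% GC or more. Under 40% GC, 206 genes were called higher and 3 lower. At 60% or more, none was called higher and 186 were called lower. The 8 genes span this scale, at 43.5% GC for Lpl, 47.5% for Abca1, 52.7% for Abcg1, 55.6% for Clu, 57.6% for Nr1h3, 57.9% for Lrp1, 59.5% for Apoe and 60.6% for Nr1h2. What produced the trend was not tested, and with 1 library in the group it cannot be told apart from the treatment.

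**Figure D2:**
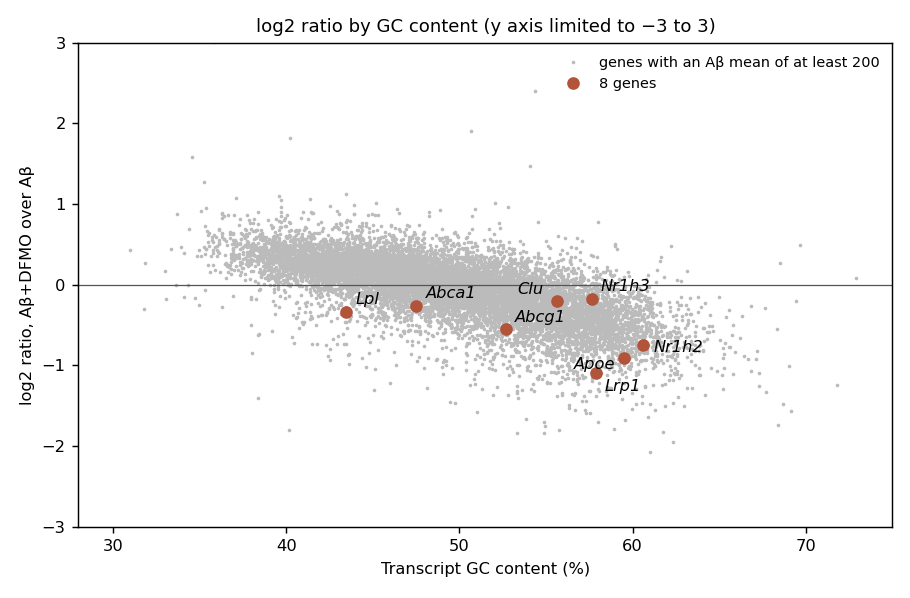
The log2 ratio of Aβ+DFMO over Aβ (y axis, limited to −3 to 3) against the GC content of the longest transcript (x axis, percent) for genes whose Aβ mean reached 200 (grey) and for the 8 genes (red). The cloud slopes downwards from a median of 0.38 under 40% GC to −0.62 at 60% or more, and Apoe, Lpl, Lrp1, Abcg1 and Abca1 lie below the lower quartile of genes of like GC content.

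Apoe, Lpl, Lrp1, Abcg1 and Abca1 lay below the lower quartile of the genes whose GC content was within 1 percentage point of theirs, Nr1h2 and Clu lay within the quartiles and Nr1h3 lay above the upper one. The lower quartiles were −0.63 for Lrp1, −0.35 for Abcg1 and −0.09 for Abca1. For Apoe the 541 such genes had a median log2 ratio of −0.53 (quartiles −0.73 and −0.34), against −0.91 for Apoe itself. For Lpl, a GC-poor transcript, the 1072 like genes had a median of 0.23 (quartiles 0.09 and 0.34), with 125 called higher and 7 lower, against −0.33 for Lpl. With the GC trend taken out, Apoe was at −0.40 (adjusted p = 0.00168) and Lpl at −0.55 (adjusted p = 0.000165). In that setting 1.57% of 18459 genes were called, 0.845% higher and 0.721% lower, and Apoe and Lpl were the 2 of the 8 genes that passed, both lower. Apoe, Clu, Lrp1, Nr1h2 and Nr1h3 moved by over 0.3 on the log2 scale between the settings.

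Nr1h2 did not pass once the trend was taken out, at −0.18 (adjusted p = 0.949). The 365 genes of like GC content had a median of −0.55 (quartiles −0.76 and −0.36), so that its deposited value of −0.75 lies just inside their middle range. The log2 ratio of Clu turned to 0.11 (adjusted p = 0.867) and that of Nr1h3 to 0.25 (adjusted p = 0.976), so no direction can be given for these genes. Abca1, Abcg1 and Lrp1 remained below 0 without passing, at −0.33, −0.39 and −0.66.

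**Figure D3:**
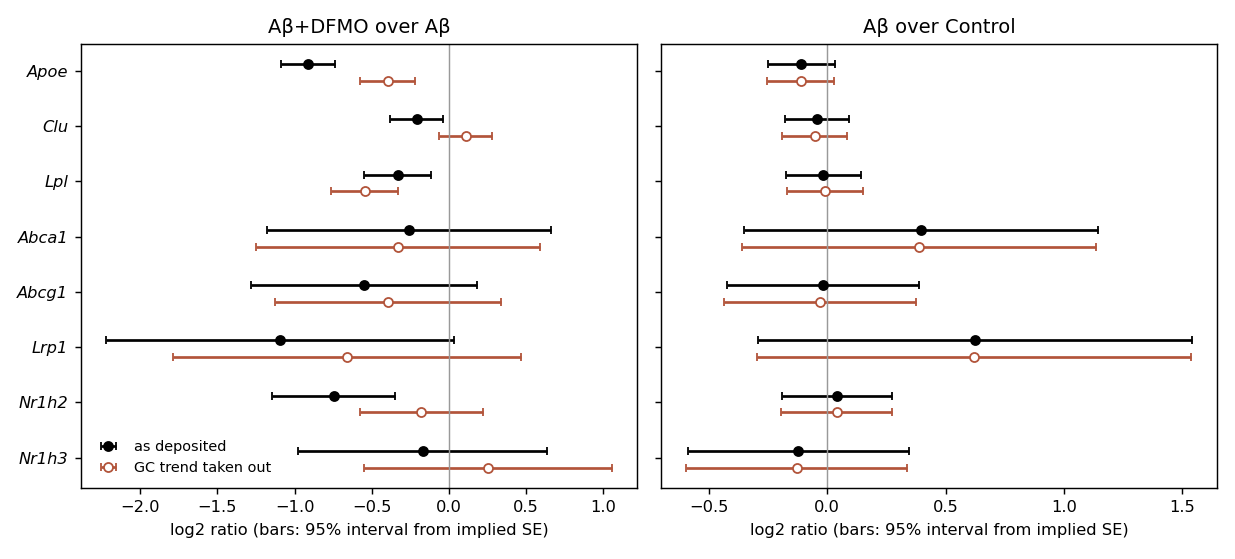
The log2 ratios of the 8 genes (rows) in Aβ+DFMO over Aβ (left) and Aβ over Control (right), as deposited (filled) and with the GC trend taken out (open), with bars for the 95% interval from the implied SE. Apoe and Lpl keep intervals below 0 on the left in both settings, Clu and Nr1h2 do so only as deposited, and every interval on the right spans 0.

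The second comparison was Aβ against Control. None of the 8 genes was called in the authors' deposited DESeq2 table, each at an adjusted p of 1.00, and at an unadjusted p under 0.05 there was none either (324 of 18783 genes had such a p). Of all genes 0.287% were called, and a count of 0 among 8 is near that background. The median log2 ratio over the 8 was −0.02, against 0.00 over all genes.

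Log2 ratios of Aβ over Control in the authors' deposited table were −0.11 for Apoe (implied SE 0.0716, unadjusted p = 0.126), −0.04 for Clu and −0.02 for Lpl. For these abundant genes the intervals of the ratio of Aβ to Control were narrow. They ran from 0.841 to 1.02 for Apoe, 0.883 to 1.07 for Clu and 0.885 to 1.10 for Lpl. The bounds were wider for the scarcer genes, 0.747 to 1.31 for Abcg1, 0.875 to 1.21 for Nr1h2 and 0.665 to 1.27 for Nr1h3, whose log2 ratios were −0.02, 0.04 and −0.12.

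Lrp1 and Abca1 had the highest ratios of Aβ over Control and by far the widest errors. Lrp1 had a mean of 13211 in Aβ against 8566 in Control, 1.54 times higher, with a log2 ratio of 0.63 and an implied SE of 0.467 in the authors' deposited table (unadjusted p = 0.181). Abca1 had a mean of 11145 in Aβ against 8472 in Control, 1.32 times higher, with a log2 ratio of 0.40 and an implied SE of 0.382 in the authors' deposited table (unadjusted p = 0.2998). The intervals of the ratio ran from 0.817 to 2.91 for Lrp1 and from 0.783 to 2.21 for Abca1. The implied SE was 6.11 times the median of the 357 genes whose Aβ mean was within 1.5 times that of Lrp1, none of which had a larger one, and 4.93 times that of the 481 such genes for Abca1, of which 4 had a larger one. For Apoe, Clu, Lpl, Abcg1, Nr1h2 and Nr1h3 the same quotient lay between 0.933 and 1.03.

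Both are long transcripts, of 14888 bases for Lrp1 and 10262 for Abca1, against 1408 for Apoe and 1810 for Clu. Among the 1167 genes with an Aβ mean over 5000 and a known length, Lrp1 ranked 2 and Abca1 ranked 10 by the size of the implied SE in Aβ over Control. Of the 20 largest, 17 belonged to transcripts over 8 kb, which make up 116 of the 1167, and all 17 of them were higher in Aβ by their means. An implied SE over 0.15 was found for 25 of 47 such genes of 10 kb or more, for 14 of 69 from 8 to 10 kb, for 10 of 141 from 6 to 8 kb, for 2 of 287 from 4 to 6 kb, for 1 of 406 from 2 to 4 kb and for 10 of 217 under 2 kb. The 97 genes (mean of at least 200) whose transcripts were within 1.2 times the length of Lrp1 had a median log2 ratio of 0.13 in Aβ over Control (quartiles 0.01 and 0.30), and none was called. With a trend with length taken out, Lrp1 was at 0.55 and Abca1 at 0.36, neither passing. The Aβ libraries differed in depth, as given above. Which library carries the spread cannot be read from group means, and the part of transcript length was not tested.

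**Figure D4:**
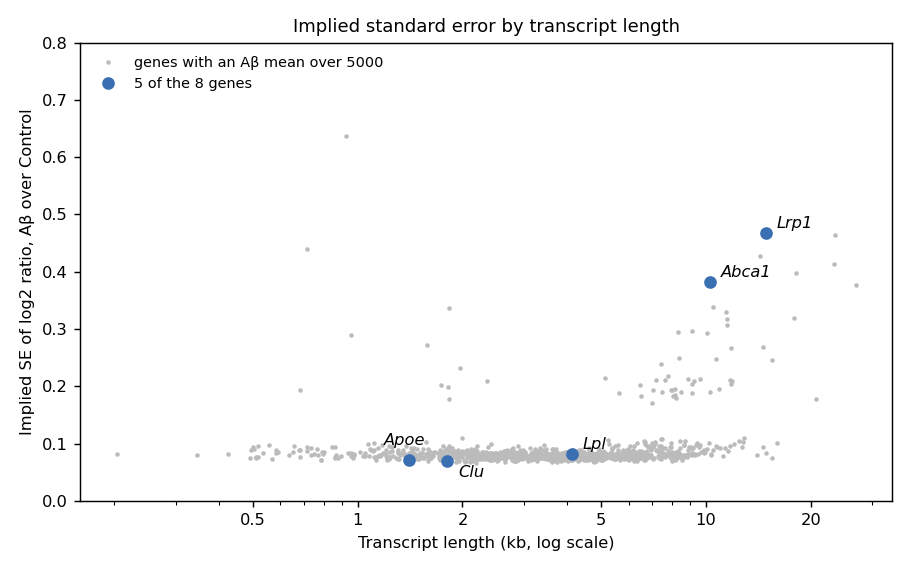
The implied SE of the log2 ratio of Aβ over Control (y axis) against transcript length (x axis, kilobases, log scale) for genes with an Aβ mean over 5000 (grey) and for the 5 of the 8 genes above that mean (blue). Most genes form a flat band with a median of 0.0796, where Apoe, Clu and Lpl lie, and many long transcripts and a few short ones lie above it, among the long ones Lrp1 at 0.467 and Abca1 at 0.382.

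Against Control, which was not tested, the Aβ+DFMO means gave log2 ratios of −1.02 for Apoe, −0.25 for Clu, −0.35 for Lpl, 0.14 for Abca1, −0.57 for Abcg1, −0.47 for Lrp1, −0.71 for Nr1h2 and −0.29 for Nr1h3. With the GC trend of this ratio taken out, Apoe was at −0.52 and Lpl at −0.55, whereas Clu was at 0.05 and Lrp1 at −0.04. Both comparisons with Aβ share the Aβ libraries, so that a high Aβ mean, as of Lrp1, enters them with opposite sign.

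Per kilobase of transcript the order of the normalized Control means was Apoe (51395), Clu (21767), Lpl (2103), Abca1 (826), Nr1h2 (602), Lrp1 (575), Nr1h3 (107) and Abcg1 (49.3). In Aβ+DFMO the order was Apoe (25316), Clu (18285), Lpl (1652), Abca1 (908), Lrp1 (416), Nr1h2 (369), Nr1h3 (87.7) and Abcg1 (33.2). Nr1h2 and Lrp1 change places between these orders, their Control values of 602 and 575 lie close together, and the difference was not tested. The means carry no error of their own. The genes whose pair of log2 ratios lay nearest to that of Apoe over the 3 group means, among 10999 candidates, were Scarf2, Add2 and Kcnd2, at distances of 0.0121, 0.0130 and 0.0155. For Clu they were Katnal1, Gpatch2l and Hspb6, at 0.00616, 0.00795 and 0.00832. The neighbours of Apoe are scarce, with Aβ+DFMO means of 156, 171 and 253 against 35645 for Apoe. Those of Clu had Aβ+DFMO means of 1692, 808 and 3115. The distances carry no error, and a shared profile was not tested.

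Around the 8 genes, 6 lists of the wider pathway were counted, which overlap with one another and hold some of the 8. Calls of Apoe, Lpl and Nr1h2 are thus counted again in them, together in the list of LXR receptors, partners and target genes. The shares over all genes that stand beside the counts include scarce genes, and shares among genes of like level were not computed. In Aβ against Control they had 1 called gene, the scavenger receptor Cd36, whose mean was 2851 in Aβ against 1544 in Control (log2 ratio 0.88 in the authors' deposited table). In the lists without a call the smallest p belonged to Apoe, the protease Furin (log2 ratio −0.21), the transporter Abca5 (0.29) and Ch25h, which makes an oxysterol that activates LXR. Ch25h had a mean of 38.7 in Aβ against 105 in Control and did not pass (log2 ratio −1.44, adjusted p = 0.155 in the authors' deposited table).

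The counts for Aβ+DFMO against Aβ that follow stand beside 5.18% of all genes called lower and 4% called higher. In this comparison, 2 of 13 apolipoproteins and secreted lipid carriers were lower and none higher (list median −0.47, or −0.22 with the GC trend taken out). These were Apoe and Pltp, which transfers phospholipid between particles (−0.47, adjusted p = 0.0134 in the authors' deposited table). Once the GC trend was out, Apoe passed and Pltp did not (−0.07).

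Of 32 LXR receptors, partners and target genes, 7 were lower and none higher in Aβ+DFMO (median −0.38). Besides Apoe they included the desaturase Scd2 (−0.50), the lipogenic factor Srebf1 (−0.69) and the LXR partner Rxra (−0.68) in the authors' deposited table. Once the GC trend was out, 3 of the 32 were lower, Apoe, Lpl and Scd2, and the median was −0.17. Scd2 was at −0.49 (adjusted p = 2.07e-05), while Srebf1 (−0.23) and Rxra (−0.29) did not pass.

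Of 29 lipoprotein receptors and adaptors, 6 were lower and 1 higher in Aβ+DFMO (median −0.24, or −0.10 with the GC trend taken out), and with the GC trend taken out 2 were lower and none higher. Those were Cd36, at 1073 in Aβ+DFMO against 2851 in Aβ (−1.41 in the authors' deposited table), and the macrophage scavenger receptor Msr1 (−0.62 in the authors' deposited table). With the trend taken out Cd36 was at −1.79 and Msr1 at −1.003. The engulfment adaptor Gulp1 was the higher one (0.57) and did not pass with the trend out (0.13), nor did the receptors Lrp10 (−0.69, then −0.21) and Lrp4 (−0.71, then −0.45). Cd36 and Msr1 are made by phagocytes, whose summed markers are given above, and the part of phagocyte number was not tested.

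Of 16 lipid transporters of the ABCA and ABCG families, 3 were lower and 1 higher in Aβ+DFMO (median 0.11, or −0.10 with the GC trend taken out, so that the median has no stable sign). Abca2 (−0.67), Abca3 (−0.67) and Abca7 (−1.06) fell and Abcg2 (0.59) rose in the authors' deposited table. None of the 16 passed with the GC trend taken out. Among 19 lipases and partners of lipoprotein lipase 3 were lower and none higher (median −0.32, or −0.04 with the GC trend taken out), namely Lpl, the monoglyceride lipase Mgll (−0.94) and Furin (−0.56) in the authors' deposited table. Once the GC trend was out, 1 was lower, Lpl, and 1 higher, the protease Pcsk6 (0.63, named after its value was seen). Of 30 genes of intracellular cholesterol and oxysterol handling 3 were lower and 1 higher (median 0.00, or −0.05 with the GC trend taken out), and none passed with the trend out. That count of 4 is near the share called over all genes. Srebf2 (−0.57) and Scap (−0.49), which drive sterol synthesis, and the mitochondrial protein Tspo (−0.94) fell, and the caveolar protein Cav1 (0.54) rose, in the authors' deposited table.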

How the data were processed

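Per the submitters' processing notes, STAR 2.7.3a, Partek, DESeq2 and FastQC were used, with the builds mm10 and GRCm39 and no role named for either. The counting program, strand setting and annotation are not named in those notes or in the headers. Per the file headers, the authors' deposited table holds for each gene least-squares means of each group (a normalized signal), their ratio and log2 ratio, a fold change, and a p-value with its adjusted p-value for Aβ over Control and Aβ+DFMO over Aβ. The deposited read summary gives reads per library and the percent in exons. As values per gene and library were not used, the planned edgeR fit was replaced by the authors' DESeq2 p-values over all 18783 genes, the fallback named in the design. The deposited log2 ratios of Aβ over Control equal those of the means for genes above a low floor. For Aβ+DFMO over Aβ this was not checked over all genes. In both comparisons the adjusted values are Benjamini-Hochberg values over the whole table.

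The implied SE is the size of the log2 ratio divided by the normal deviate of its two-sided p. Length and GC content are those of the longest basic GENCODE transcript (GRCm38), found for 98.3% of genes. Trends were lowess curves (span 0.3, statsmodels 0.14.6) over genes whose Aβ mean was at least 200, subtracted for all genes. The implied SE was kept and p readjusted. A simulation checked only the removal of a straight GC trend, with changes of 1 on the log2 scale in genes whose Aβ mean was at least 5000. Removal of the length trend, smaller changes and scarcer changed genes were not checked. Reads in Aβ+DFMO were estimated by dividing by 7.46 units, since 81.4% of 7233 low values were whole multiples of it within 0.05 reads. Values of an estimated 1 read, such as 7.45 for Cdh5, lie slightly under that unit, so large read numbers are approximate. Depth per gene of the other libraries is unknown.

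The 8 genes and the lists were chosen with earlier results of these data known. All 8 genes are named. Of each wider list, up to 4 called genes with the smallest p in each direction are named, or else the one with the smallest p. The likeness rule took the 3 nearest genes with a Control mean of at least 200. The trend with length was added after seeing the data. The authors' pathway table was not used.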

Additional observations from a re-analysis of the deposited data

How the results depend on the processing

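The calls of Apoe and Lpl in Aβ+DFMO over Aβ, both lower, held with the GC trend taken out, the length trend taken out, both taken out, median centring and adjustment over genes whose Aβ mean reached 200. The adjusted p of Lpl ranged from 0.000165 to 0.0495 over these settings, highest with median centring, and as deposited Lpl did not pass an adjusted p under 0.01. Nr1h2 ended at −0.18 with the GC trend taken out and −0.21 with both taken out, neither passing. Of the genes that did not pass, Clu turned to 0.11 with the GC trend taken out and 0.0747 with both taken out, and Nr1h3 to 0.25 and 0.22. In Aβ over Control, Lpl turned to 0.00454 with both taken out. None of the 8 genes was called in Aβ over Control under any of these settings. Pseudocounts of 1 and 100 turned no direction. Over all genes, Aβ+DFMO over Aβ had 751 called higher and 973 lower as deposited, 156 and 133 with the GC trend taken out, 145 and 136 with both taken out, 989 and 813 with the length trend taken out, 887 and 881 with median centring, 915 and 1151 when adjusted over genes whose Aβ mean reached 200, and 369 and 518 at an adjusted p under 0.01. The cause was not tested, other than that a stricter threshold calls fewer genes. No paired analysis was possible because only group means were used, and for the same reason no library could be left out and no other normalization or count filter was run. With 1 library in Aβ+DFMO, its own spread is unknown.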
